A study of Mus musculus with 6 samples.

Results

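The 35 genes described here encode the cytosolic heat shock proteins, their co-chaperones and the heat shock factors, measured in gastrocnemius, a calf muscle, of Sparc knockout and wild type mice. They were chosen by name, in 7 families: HSP70, HSP110, small heat shock proteins, HSP90, J proteins, BAG proteins and heat shock factors. Of the 35, 32 had a probe set naming that gene alone and were measured, among 16487 genes tested in all. Hspa1b was named only together with Hspa1a, and no probe set of the platform annotation used here named Hsp90ab1 or Hsf1 alone, so these 3 were not analysed here. All 32 measured members lay above the filter on dim genes at 3.90 on the log2 scale in the mean over all arrays, and Dnajb6 was the closest to it.

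The study compared metabolic gene expression in skeletal muscle between 3 males labelled as homogenous SPARC knockout and 3 wild type males, all 12 weeks old. SPARC is a secreted glycoprotein of the extracellular matrix. Both genotypes carry the strain label B6;129S-Sparctm1Hwe/J, a mixed B6 and 129S background, and no promoter, Cre or treatment is named. RNA of each sample was hybridised to 1 Affymetrix whole-transcript array. Nothing in the labels tells of litters or batches, so p-values measure the spread between these samples.

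Chaperones of the HSP70 class bind unfolded stretches of proteins in a cycle of ATP hydrolysis. J proteins deliver substrates and start hydrolysis, while HSP110 and BAG proteins release the nucleotide. HSP90 completes the folding of kinases, receptors and, in muscle, of myosin, and small heat shock proteins hold damaged proteins without using ATP, many of them at the Z-disc. Heat shock factors raise transcription of the inducible members under stress, through repeats of a short inverted element in their promoters.

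Promoter letters are shown for 5 members, to set the neighbouring genes Hspa1l and Hspa1a side by side and to show what the element looks like in members of other families. The sequences are those of RefSeq on GRCm38.p6, 250 bases up to the start of the gene, 5′ to 3′ on the gene's own strand. Capitals mark each match to GAANNTTC or TTCNNGAA, the 2 ways to write a pair of inverted heat shock units. Each of these motifs reads the same on both strands, and overlapping matches were counted.
Hspa1l, chr17:34972453-34972702, plus strand: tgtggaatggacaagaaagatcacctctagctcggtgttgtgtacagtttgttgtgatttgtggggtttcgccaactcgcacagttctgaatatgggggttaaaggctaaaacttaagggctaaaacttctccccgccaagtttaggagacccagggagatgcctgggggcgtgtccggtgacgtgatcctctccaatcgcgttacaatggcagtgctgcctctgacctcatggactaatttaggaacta
Hspa1a, chr17:34972157-34972406, minus strand: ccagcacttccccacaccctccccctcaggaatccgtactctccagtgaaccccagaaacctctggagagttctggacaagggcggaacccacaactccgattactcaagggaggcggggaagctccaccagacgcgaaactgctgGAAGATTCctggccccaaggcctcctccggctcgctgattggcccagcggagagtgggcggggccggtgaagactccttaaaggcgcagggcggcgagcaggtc
Hsph1, chr5:149636337-149636586, minus strand: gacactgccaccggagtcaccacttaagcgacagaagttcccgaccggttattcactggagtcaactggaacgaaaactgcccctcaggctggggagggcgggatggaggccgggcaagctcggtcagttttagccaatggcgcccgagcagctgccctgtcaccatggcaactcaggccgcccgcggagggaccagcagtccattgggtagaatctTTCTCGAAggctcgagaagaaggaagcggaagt
Hspb3, chr13:113663677-113663926, minus strand: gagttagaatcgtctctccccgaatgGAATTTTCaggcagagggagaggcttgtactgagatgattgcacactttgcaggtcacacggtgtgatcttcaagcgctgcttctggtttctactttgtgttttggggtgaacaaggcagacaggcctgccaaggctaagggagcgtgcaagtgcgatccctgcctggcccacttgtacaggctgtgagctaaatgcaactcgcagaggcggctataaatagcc
Dnaja1, chr4:40722218-40722467, plus strand: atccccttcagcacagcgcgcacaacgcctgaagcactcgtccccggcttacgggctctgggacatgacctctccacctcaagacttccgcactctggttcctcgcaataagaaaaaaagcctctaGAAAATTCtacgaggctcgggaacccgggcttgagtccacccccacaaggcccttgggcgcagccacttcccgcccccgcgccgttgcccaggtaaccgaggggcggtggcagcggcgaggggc
The windows of Hspa1l and Hspa1a run away from each other and lie 46 bases apart. The Hspa1l window held no match, and the others held 1 match each, starting 104 bases before the gene's start in Hspa1a, 33 in Hsph1, 224 in Hspb3 and 124 in Dnaja1.

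The promoter table, with windows of 300 bases that include 50 after the start, held 28 of the 35 members. At least 1 match stood in 12 of these 28 (42.9%), against 17.0% of all 27025 genes of the table. Some genes had several windows, with 40 in all for the members and 32851 for all genes. The shares were not matched for the number of windows. The longer form has 3 alternating units, GAA, TTC and GAA or TTC, GAA and TTC, each followed by NN up to the next unit, and contains the shorter one. It stood in 2 members, Hsph1 and Dnajb6 (7.14%), against 0.662% of all genes. The 250 bases printed for Hsph1 do not hold this longer form. They hold 1 match to the shorter one, where its window of 300 bases held 3. Among measured members the log2 change in knockouts had a median of -0.10 for the 11 with a match, 5 of them positive, and of -0.02 for the 16 without, 8 of them positive. Members with and without these letters thus lay on both sides of 0.

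The arrays separated by genotype in Sparc itself and differed among the knockouts. Sparc read 6.74, 6.46 and 5.83 in knockout arrays 1, 2 and 3, against 11.80, 11.73 and 11.87 in wild type arrays 1, 2 and 3 (log2 intensity; limma adjusted p = 2.08e-05). Fibre genes were intense in every array, with Acta1 between 13.20 and 13.36 in knockouts and between 13.44 and 13.48 in wild types, as fits the muscle label. Knockouts had the wider spread, with a typical SD (median over genes) of 0.163 against 0.0912 among wild types. On the first principal component the knockout nearest the wild types was array 2.

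Of the 32 members, 1 passed an adjusted p of 0.05: Hspa1l, which fell. That is 3.12% of the members, where 0.995% of all genes tested passed, 0.321% higher and 0.673% lower. No other member passed, and 7 members had an unadjusted p under 0.05 (21.9%, against 18.4% of all genes). Of these, 4 were higher (Hspa1a, Hspb7, Hsp90aa1 and Dnaja1, where 8.16% of all genes were) and 3 lower (Hspa1l, Hspb3 and Dnaja3, where 10.3% of all genes were). The 3 knockout values lay apart from the 3 wild type values in 9 members (28.1%, against 25% of all genes), 5 higher and 4 lower, where 11.1% of all genes lay higher and 13.8% lower. These shares lie near those of all genes. The median change was -0.04 over the members and 0.0001 over all genes, so the chaperones did not lean to one side. Their changes were wider in size, with a median absolute log2 change of 0.20 over the members and 0.13 over all genes. Members and all genes were not matched for intensity in this comparison.

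**Figure D1:**
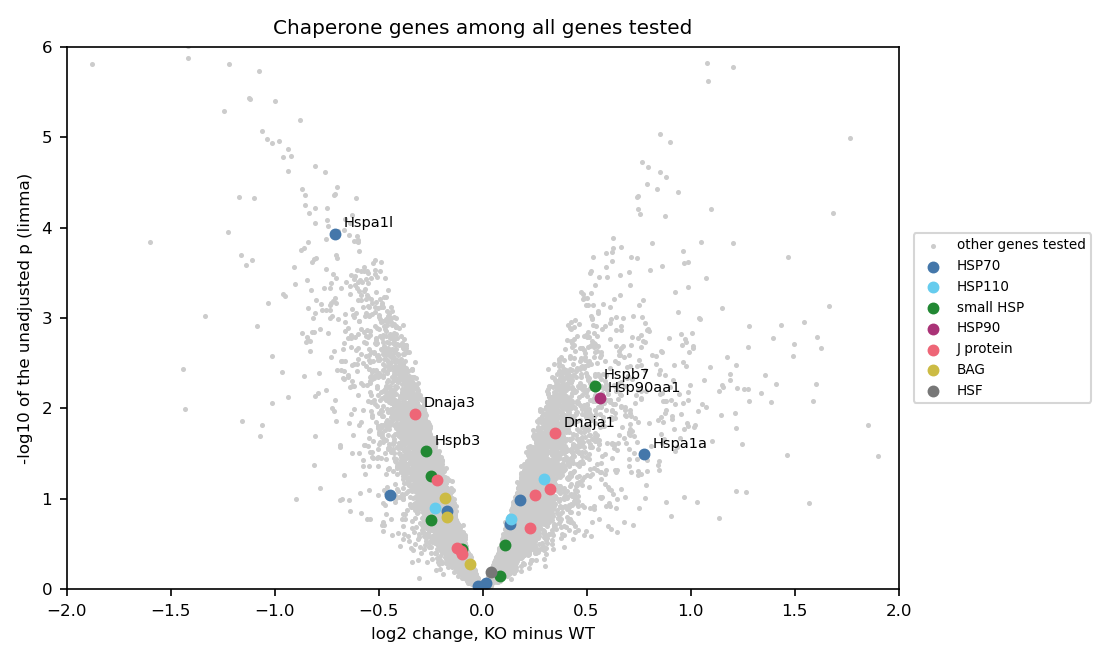
Log2 change (knockout minus wild type, horizontal axis) against -log10 of the unadjusted limma p (vertical axis) for all genes tested in grey and the 32 chaperone genes coloured by family. Hspa1l stands alone among the members at -0.71, while the 6 other named members have unadjusted p under 0.05 only; 16 genes, none of them a member, lie outside the plotted range.

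The HSP70 family held the strongest decrease and, at an adjusted p that missed the threshold, the largest positive change. Hspa1l, a constitutive HSP70 most abundant in testis, read 6.22, 6.31 and 6.41 in knockout arrays 1, 2 and 3, against 7.04, 6.87 and 7.15 in wild type arrays 1, 2 and 3. All knockouts lay below all wild types, by more than the spread within either group. Hspa1l averaged 6.31 ± 0.095 in knockouts and 7.02 ± 0.14 in wild types (SD, n = 3 each), 1.64-fold lower, and the log2 change was -0.71 ± 0.11 (SE; adjusted p = 0.0262 by limma). The call was lost without any 1 of the wild type arrays (adjusted p = 0.158, 0.0858 and 0.163 without arrays 1, 2 and 3), where the change stayed between -0.78 and -0.65.

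Hspa1a, the stress-inducible HSP70 that lies next to Hspa1l on chromosome 17 with 0 protein-coding genes between them, read 7.75, 7.13 and 8.56 in knockout arrays 1, 2 and 3. The wild type arrays 1, 2 and 3 read 7.04, 6.83 and 7.24. Knockout array 3 was the highest, knockout array 2 lay within the wild type range, and the groups overlapped. The log2 change of 0.78 ± 0.30 (SE) had an adjusted p of 0.223 and a 95% interval from 0.08 to 1.47. It was 0.40 without knockout array 3. Without knockout array 2 it was 1.12 and passed (adjusted p = 0.0383), as did 6.17% of all genes. It did not pass without knockout array 1 or 3 (adjusted p = 0.233 and 0.333). Hspa1a and Hspa1b are near-identical copies, so signal of Hspa1b on this probe set cannot be told apart from Hspa1a.

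Hspa8, the constitutive HSC70 that carries most of the cell's routine HSP70 work, differed between its own probe sets. In the probe set with the highest mean it read 12.24, 11.90 and 11.14 in knockout arrays 1, 2 and 3, against 12.14, 12.26 and 12.22 in wild type arrays 1, 2 and 3. Only knockout array 3 was far below the wild types. The log2 change was -0.45 ± 0.23 (SE; adjusted p = 0.356), and it was -0.13 without knockout array 3. The 2 other probe sets of Hspa8 had changes of 0.08 and 0.03, and in knockout array 3 they read 12.008 and 12.005. No statement on the direction of Hspa8 can be drawn from these 3 probe sets, which disagree in sign.

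The other HSP70 members showed small differences. Hspa2, an HSP70 needed for sperm formation, had a log2 change of 0.18 ± 0.10, and Hspa14, an HSP70 relative that works at the ribosome, one of 0.13 ± 0.09 (SE). Hspa14 read 6.70, 6.73 and 6.70 in knockouts and 6.49, 6.57 and 6.68 in wild types, so the groups lay apart by a narrow margin. Hspa12a and Hspa12b, distant relatives of HSP70, of which Hspa12b is known from endothelium, differed by 0.02 ± 0.11 and -0.17 ± 0.11 (SE). Hspa13, a microsome-associated relative and so not strictly cytosolic, had a change of -0.02 ± 0.19 (SE), where knockout array 1 read 8.16 and the other knockouts 7.49 and 7.39. Adjusted p-values of these 5 ran from 0.378 to 0.971. The family median was -0.0006 over 8 members, 4 positive and 4 negative.

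**Figure D2:**
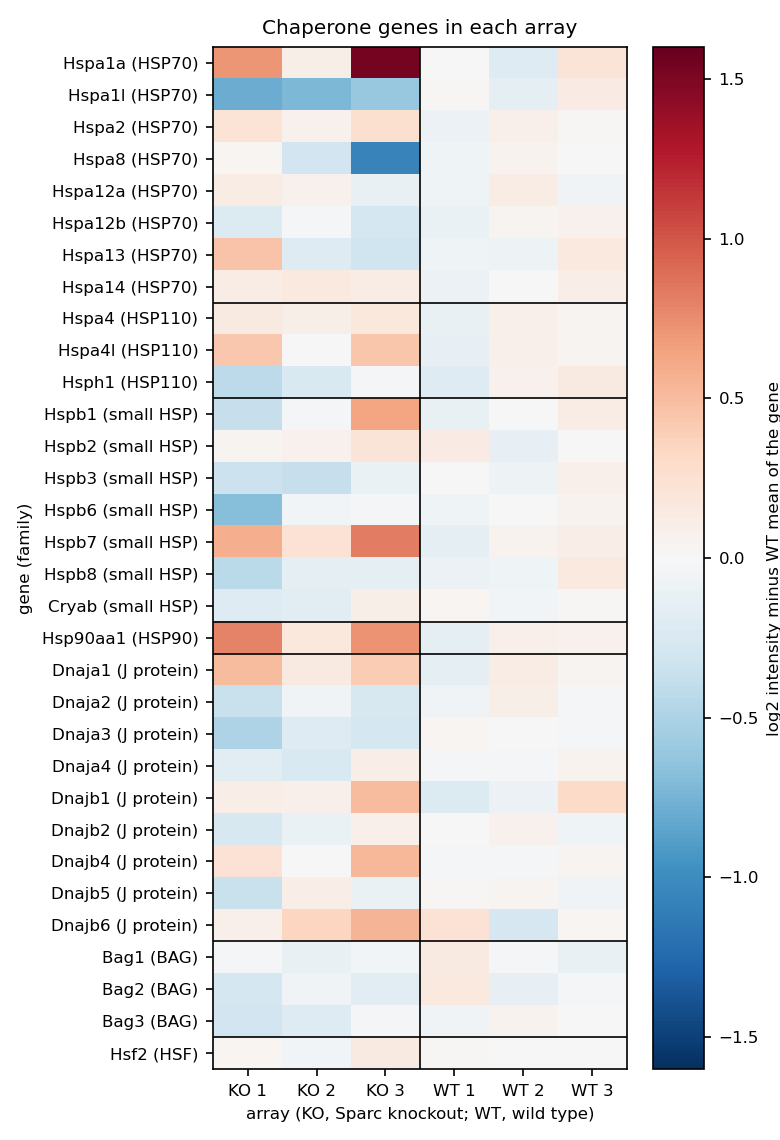
Log2 intensity of each of the 32 measured chaperone genes minus its wild type mean (colour), by array (columns, knockout arrays 1 to 3 and then wild type arrays 1 to 3) and family (rows, separated by lines). Hspa1l is lower in all 3 knockouts, while Hspa1a and Hspa8 move most in knockout array 3 and Hspb7 and Hsp90aa1 are above the wild type mean in all 3 knockouts.

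The HSP110 proteins are nucleotide exchange factors of HSP70, and none of the 3 passed. Hspa4 read 9.32, 9.27 and 9.35 in knockouts and 9.06, 9.26 and 9.22 in wild types, a difference of 0.14 ± 0.09 (SE; adjusted p = 0.479). The groups of Hspa4 lay apart, yet knockout array 2 and wild type array 2 were almost level. Hspa4 shares chromosome 11 with Sparc, with 37 protein-coding genes between them. Of these 37, 32 were tested and 0 passed by limma, where 0.995% of all genes passed. Hspa4l, the close relative of Hspa4, read 7.03, 6.61 and 7.05 in knockouts and 6.48, 6.69 and 6.65 in wild types (0.29 ± 0.14, SE; adjusted p = 0.296). Hsph1, the heat-inducible HSP105 and, with Dnajb6, a member with the 3-unit form in its promoter window, read 8.10, 8.29 and 8.51 in knockouts against 8.32, 8.59 and 8.66 in wild types (-0.23 ± 0.13, SE; adjusted p = 0.417). Its direction was opposite to those of Hspa4 and Hspa4l, and all 3 overlapped or nearly touched.

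HSP90 was represented by Hsp90aa1, its stress-inducible cytosolic form. Hsp90aa1 read 10.64, 10.02 and 10.57 in knockout arrays 1, 2 and 3, against 9.69, 9.93 and 9.91 in wild type arrays 1, 2 and 3. All 3 knockouts were above all wild types, knockout array 2 only just. The log2 change was 0.56 ± 0.16 (SE), with a 95% interval from 0.19 to 0.94 and an adjusted p of 0.131. Its 2 other probe sets had changes of 0.54 and 0.53, with the same order of arrays within the knockouts. In the set at 0.53 the groups overlapped, with knockout array 2 at 9.792 and wild type array 2 at 9.838. Without knockout array 2 the change in the first probe set was 0.76 and passed (adjusted p = 0.00989), as did 6.17% of all genes. It was 0.45 and 0.48 without knockout arrays 1 and 3, and did not pass (adjusted p = 0.177 and 0.231).

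The small heat shock proteins are abundant in muscle, and their 7 members split 3 positive to 4 negative, with a median of -0.10 and none past the threshold (median -0.19 to -0.03 with 1 array left out). Hspb7, the cardiovascular small heat shock protein, which binds the Z-disc crosslinker filamin C, had the smallest p. It read 11.58, 11.23 and 11.82 in knockout arrays 1, 2 and 3, against 10.85, 11.05 and 11.11 in wild type arrays 1, 2 and 3. Every knockout was above every wild type, with knockout array 2 again the nearest. The log2 change was 0.54 ± 0.15 (SE; adjusted p = 0.117). Without knockout array 2 it was 0.70 and passed (adjusted p = 0.018), as did 6.17% of all genes. It was 0.52 and 0.40 without knockout arrays 1 and 3, and did not pass (adjusted p = 0.146 and 0.194).

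Hspb3, which forms a complex with Hspb2 in muscle, read 7.58, 7.56 and 7.81 in knockouts and 7.92, 7.84 and 8.004 in wild types. The groups lay apart with knockout array 3 close to wild type array 2, and the log2 change was -0.27 ± 0.10 (SE; adjusted p = 0.216). Hspb2 itself read 8.999, 9.02 and 9.16 in knockouts and 9.08, 8.82 and 8.96 in wild types (0.11 ± 0.10, SE; adjusted p = 0.64). The partners therefore had changes of opposite sign, neither of which passed. Cryab, alpha B-crystallin, a chaperone of desmin that is the neighbour of Hspb2 on chromosome 9, read 9.86, 9.89 and 10.15 in knockouts and 10.10, 10.01 and 10.08 in wild types (-0.10 ± 0.10, SE; adjusted p = 0.674).

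Hspb8, the partner of Bag3 in the disposal of damaged filamin, read 10.61, 10.89 and 10.89 in knockouts and 10.96, 10.97 and 11.20 in wild types. Its groups lay apart with a log2 change of -0.25 ± 0.11 (SE; adjusted p = 0.287). Hspb6, or HSP20, read 11.60, 12.23 and 12.26 in knockouts and 12.21, 12.28 and 12.34 in wild types, so that knockout array 1 alone was low. The change of -0.25 ± 0.17 (SE; adjusted p = 0.483) was -0.03 without that array. Hspb1, or HSP25, a stabiliser of actin filaments, read 8.66, 9.01 and 9.66 in knockouts, on both sides of the wild types at 8.91, 9.03 and 9.15. Its change of 0.08 ± 0.22 (SE; adjusted p = 0.892) turned to -0.19 without knockout array 3, and its other probe set followed the same order of arrays with a change of 0.10.

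**Figure D3:**
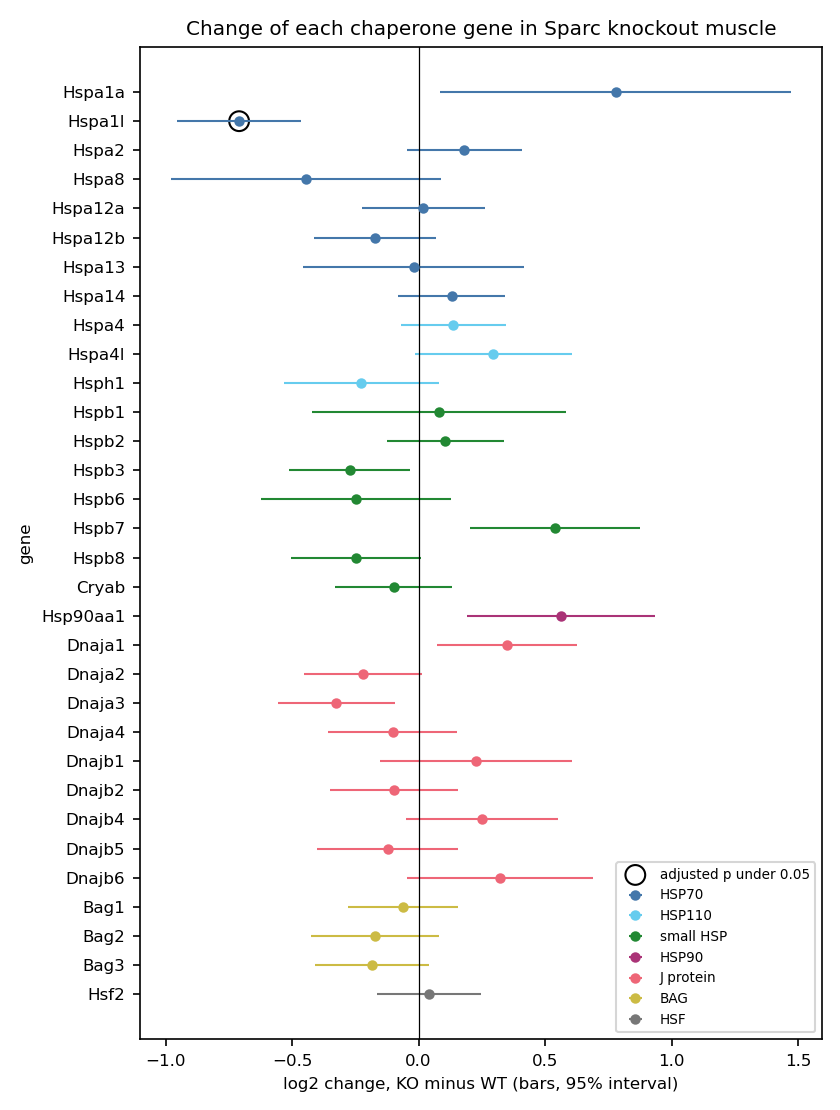
Log2 change in Sparc knockout muscle (points, knockout minus wild type, n = 3 arrays each) with its 95% interval (bars) for each chaperone gene, coloured by family; a ring marks an adjusted p under 0.05. Only Hspa1l, at -0.71, has the ring, and the intervals of Hspa1a, Hspb7, Hsp90aa1, Dnaja1, Hspb3 and Dnaja3 also leave out 0.

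Among the 9 J proteins, 4 had positive and 5 negative changes, with a median of -0.10, and none passed. Dnaja1, a broadly expressed partner of HSC70, read 9.68, 9.32 and 9.58 in knockouts and 9.02, 9.29 and 9.21 in wild types. The groups lay apart by little, and the log2 change was 0.35 ± 0.12 (SE; adjusted p = 0.179), with 0.30 in its other probe set. In that other set the groups overlapped, with knockout array 2 at 6.666 and wild type array 2 at 6.686. Dnaja3, which acts mainly in mitochondria, read 8.05, 8.34 and 8.26 in knockouts and 8.57, 8.55 and 8.50 in wild types (-0.32 ± 0.10, SE; adjusted p = 0.147). Every knockout lay below every wild type, as in Hspa1l but with a smaller gap. Dnaja2, another partner of HSC70, had a change of -0.22 ± 0.10 (SE; adjusted p = 0.302) with overlapping groups, and Dnaja4 one of -0.10 ± 0.11 (SE; adjusted p = 0.69).

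Of the B-type J proteins, Dnajb1, Dnajb4 and Dnajb6 had positive changes that did not pass. Dnajb1, the classic heat-inducible HSP40, read 6.92, 6.90 and 7.32 in knockouts and 6.60, 6.73 and 7.13 in wild types, so the groups overlapped (0.23 ± 0.17, SE; adjusted p = 0.527). Dnajb4 read 9.11, 8.89 and 9.41 in knockouts and 8.87, 8.85 and 8.93 in wild types, with knockout array 2 within the wild type range (0.25 ± 0.13, SE; adjusted p = 0.356). The Dnajb4 change was 0.11 without knockout array 3 and 0.38 without knockout array 2. Dnajb6, a suppressor of protein aggregation whose human gene is mutated in a limb-girdle muscular dystrophy, read 4.73, 4.98 and 5.18 in knockouts and 4.87, 4.37 and 4.68 in wild types (0.32 ± 0.16, SE; adjusted p = 0.336). These dim values come from a probe set tied to a single transcript, and the 4 probe sets shared with another gene symbol were left out, so the level of the whole gene is not given here. Dnajb2, which binds ubiquitin, differed by -0.10 ± 0.11 (SE; adjusted p = 0.709), and Dnajb5 by -0.12 ± 0.12 (SE; adjusted p = 0.66).

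The BAG proteins all had small negative changes, with a family median of -0.17. Bag3, which joins HSC70 and Hspb8 in chaperone-assisted autophagy at the Z-disc, read 8.76, 8.87 and 9.03 in knockouts and 9.01, 9.13 and 9.07 in wild types. Knockout array 3 lay above wild type array 1, and the log2 change was -0.18 ± 0.10 (SE), with a 95% interval from -0.41 to 0.04 and an adjusted p of 0.371. Bag2, an inhibitor of the ubiquitin ligase CHIP, had a change of -0.17 ± 0.11 and Bag1, a regulator of HSC70, one of -0.06 ± 0.10 (SE; adjusted p = 0.464 and 0.796). Of the heat shock factors Hsf2 was measured. It read 8.19, 8.11 and 8.31 in knockouts and 8.17, 8.15 and 8.15 in wild types (0.04 ± 0.09, SE; adjusted p = 0.863), so its 95% interval reached from -0.16 to 0.25.

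**Figure D4:**
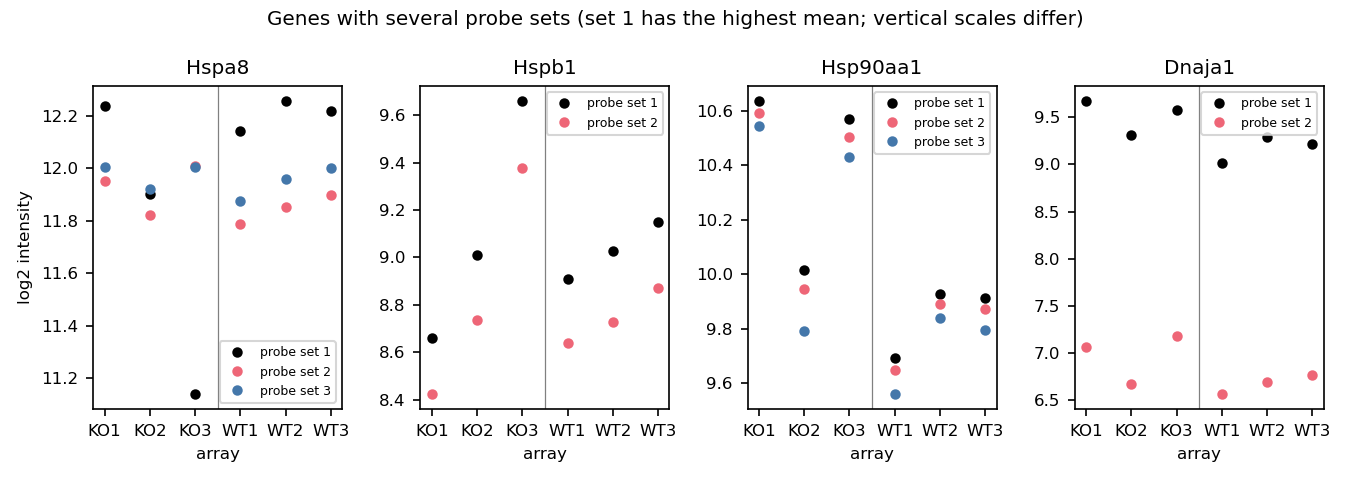
Log2 intensity (vertical axis, its own scale in each panel) by array (knockouts left of the line, wild types right) for the 4 members with several probe sets. The probe sets of Hspb1, Hsp90aa1 and Dnaja1 have like-signed changes, while in Hspa8 the first set drops to 11.14 in knockout array 3 and the other sets read 12.008 and 12.005 there.

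Members varied more among knockouts than among wild types, as most genes did. The range over 3 arrays was wider in knockouts for 24 of 32 members, and for 12395 of 16487 genes. Over the members the range in knockouts had a median of 0.32 and reached 1.43 in Hspa1a, against a median of 0.20 and a highest value of 0.53 in wild types. Knockout array 3 had the highest of the knockout values in 20 of 32 members, among them Hspa1a, Hspb1, Hspb7, Dnajb1 and Dnajb4. The lowest of the knockout values came from array 1 in 15 members, array 2 in 13 and array 3 in 4. Array 2 was the lowest in Hspa1a, Hspb7, Hsp90aa1, Dnaja1 and Hspa4l, and array 1 in Hspa1l, Hspb1, Hspb6, Hspb8 and Dnaja3.

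Other genes of the chaperone network were taken from 7 lists, and 0 of their members passed by limma, where 0.995% of all genes passed. The cytosolic chaperonin TRiC, which folds actin and tubulin, had negative changes in all 8 subunits measured, with a median of -0.15, where 8243 of 16487 genes had negative changes. Averaged over the subunits, knockout arrays 1, 2 and 3 lay at -0.16, -0.17 and -0.15 relative to the wild types, against -0.02, -0.01 and 0.04 in wild type arrays 1, 2 and 3. The knockouts were thus close together and below the wild types. The unadjusted p was under 0.05 in 3 subunits, each of them lower, where 10.3% of all genes were lower. With 1 array left out, 0 to 3 subunits had such a p in either direction, 0 of them without wild type array 3. In these fits 12.1% to 22.5% of all genes had such a p, 12.1% without wild type array 3. Cct6a read 9.68, 9.78 and 9.72 in knockouts and 9.86, 10.02 and 10.08 in wild types (-0.26 ± 0.09, SE; adjusted p = 0.19), and Cct7 had a change of -0.25 ± 0.09 (SE; adjusted p = 0.203).

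The HSP90 co-chaperones had negative changes in 17 of 19 genes (median -0.15). Of the 19, 5 were lower at an unadjusted p under 0.05, where 10.3% of all genes were. With 1 array left out, 1 to 6 had such a p in either direction, 1 each without wild type array 2 or 3. Over these omissions 12.1% to 22.5% of all genes had such a p, 12.1% without wild type array 2 or 3. Fkbp4, the immunophilin of steroid receptor complexes, read 8.30, 8.50 and 8.35 in knockouts and 8.72, 8.80 and 8.75 in wild types (-0.37 ± 0.09, SE; adjusted p = 0.0936). Unc45b, the muscle chaperone of myosin, read 9.13, 9.47 and 9.18 in knockouts and 9.38, 9.65 and 9.69 in wild types (-0.31 ± 0.12, SE; adjusted p = 0.233). Most HSP90 co-chaperones thus had a sign opposite to that of Hsp90aa1.

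The HSP70 co-chaperones had negative changes in 9 of 11 genes (median -0.16). Of the 11, 4 were lower at an unadjusted p under 0.05, where 10.3% of all genes were. In the same omissions 2 to 5 had such a p in either direction, 2 without any 1 of the wild type arrays. Of all genes, 12.1% had such a p without any 1 wild type array, and up to 22.5% over all the omissions. Hikeshi, which carries HSP70 into the nucleus under heat stress, read 8.84, 9.22 and 8.61 in knockouts and 9.55, 9.53 and 9.54 in wild types. The wild types were level and all knockouts were below them, with a log2 change of -0.65 ± 0.14 (SE; adjusted p = 0.0768). Bag6, a chaperone of membrane proteins in the cytosol, had a change of -0.39 ± 0.10 (SE; adjusted p = 0.107). Without knockout array 2, Hikeshi, Bag6 and Fkbp4 passed (adjusted p = 0.00769, 0.0332 and 0.0338), as did 6.17% of all genes. None of them passed without knockout array 1 or 3 (adjusted p from 0.103 to 0.156).

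The remaining lists had medians of either sign. The DnajC J proteins had a median of -0.05 over 12 genes. Of the 12, 2 were lower at an unadjusted p of 0.05, where 10.3% of all genes were. These were Dnajc21 at -0.31 ± 0.10 and Dnajc12 at -0.39 ± 0.13 (SE; adjusted p = 0.148 and 0.179). Genes of chaperone-assisted selective autophagy had a median of -0.12 over 7 genes. Of the 7, 0 had an unadjusted p under 0.05, where 18.4% of all genes did. The autophagosome proteins Map1lc3a and Map1lc3b were at -0.20 ± 0.11 and -0.16 ± 0.09 (SE). Regulators of heat shock factors had a median of 0.04 over 9 genes, with Hsbp1, which binds HSF1, at -0.30 ± 0.10 and the kinase Mapk8 at 0.24 ± 0.10 (SE; adjusted p = 0.168 and 0.253). Client proteins of small heat shock proteins had positive changes in 6 of 7 genes (median 0.35). Of the 7, 4 were higher at an unadjusted p of 0.05, where 8.16% of all genes were. The 1 negative change was that of desmin (Des), at -0.205 ± 0.09 (SE; limma adjusted p = 0.29), with every knockout below every wild type. The smallest p-values were those of vimentin (Vim) at 0.51 ± 0.12 and the tubulin Tubb5 at 0.35 ± 0.11 (SE; adjusted p = 0.0829 and 0.155). Without knockout array 2, Vim, Tubb5 and Hsbp1 also passed (adjusted p = 0.0138, 0.0288 and 0.0422), where 6.17% of all genes passed. None of them passed without knockout array 1 or 3 (adjusted p from 0.112 to 0.29).

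**Figure D5:**
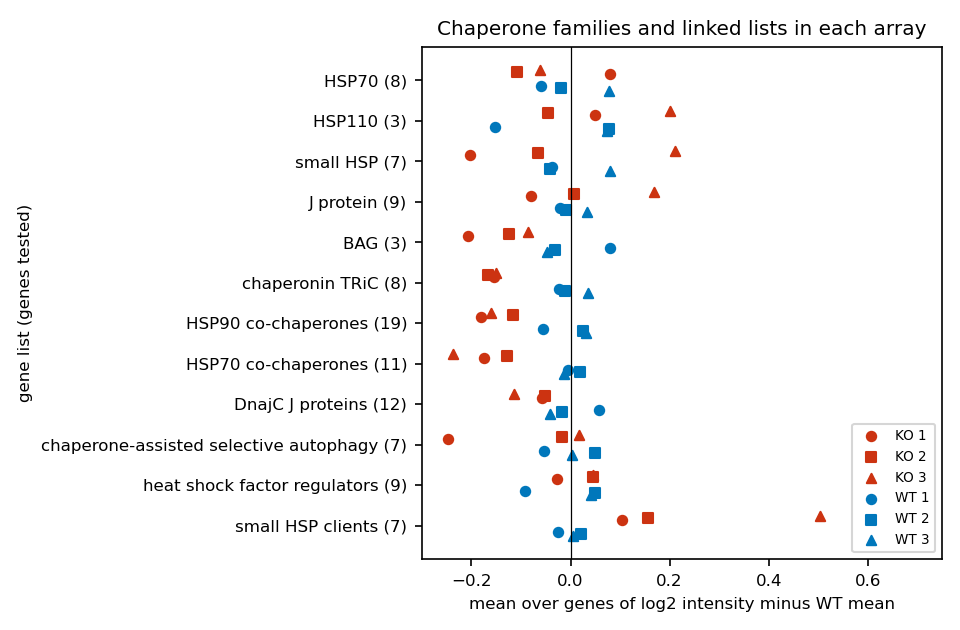
Mean over the genes of a list of log2 intensity minus the gene's wild type mean (horizontal axis), for chaperone families with more than 1 measured member and for the 7 linked lists (rows, with the number of genes), 1 point per array, knockouts in red and drawn above wild types in blue. The TRiC knockouts sit between -0.17 and -0.15, all below the wild types. Knockouts of the BAG family, the HSP90 and HSP70 co-chaperones and the DnajC J proteins also lie below all wild types. Those of the small HSP clients lie above them. The knockouts of the HSP70, HSP110, small HSP and J protein families overlap the wild types.

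Fewer cells of a type and less RNA per cell cannot be told apart in whole muscle, and markers of several cell types differed between the arrays. Macrophage markers had positive changes in 12 of 12 genes, 9 of them at an unadjusted p of 0.05, where 8244 of 16487 genes were positive and 8.16% were higher at that p. They had a summed intensity of 3374 to 6211 in knockouts and 2413 to 2690 in wild types. Fibroblast markers had positive changes in 9 of 9 genes measured, with a summed intensity of 13750 to 18790 in knockouts and 12260 to 13360 in wild types. Tendon markers had positive changes in 8 of 8 genes, with sums of 5486 to 10040 in knockouts and 3421 to 4997 in wild types. Pericyte and smooth muscle markers had positive changes in 9 of 10 genes, with sums of 7935 to 8836 in knockouts and 8048 to 8471 in wild types, and adipocyte markers negative changes in 8 of 9, with sums of 4460 to 4733 in knockouts and 4111 to 6165 in wild types. Fast fibre markers had negative changes in 11 of 12 genes, with sums of 70850 to 80260 in knockouts and 81890 to 82720 in wild types. The slow fibre list spread most among knockouts, with list means of -0.51, -0.87 and 0.47 relative to wild types for knockout arrays 1, 2 and 3. It had negative changes in 8 of 10 genes, with overlapping sums of 4516 to 10910 in knockouts and 7423 to 8407 in wild types. Its marker Myl3 fell (log2 change -1.23, adjusted p = 0.0256), the only 1 of the 10 at an unadjusted p under 0.05. Immediate early genes, which rise quickly after tissue handling, lay at -0.65, -0.39 and 0.21 in knockout arrays 1, 2 and 3, against -0.24, -0.20 and 0.44 in wild type arrays 1, 2 and 3. The part of these markers in the chaperone values was not tested.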

How the data were processed

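Arrays of 3 knockout and 3 wild type muscles were compared. The authors deposited linear intensity values, 1 per probe set, made by RMA; the submitters' processing notes name Expression Console of Affymetrix, version 1.3.0.187. RMA corrects background, normalizes between arrays and can shrink differences between dim values. No source used here gives a genome build for the probes. The number of arrays limits precision.

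Log2 of the deposited intensity was taken, and 0 value columns were left unmapped. The platform annotation, which can be old, gave 1 symbol to 21789 probe sets, several to 1621 and none to 12146. Only probe sets with 1 symbol were used, the highest mean over all arrays per gene. Dim genes, with a mean below the 25th percentile over probe sets (3.90), were left out, 3451 of 19938. Knockout was tested against wild type in R 4.3.3 by limma 3.58.1, using lmFit and then eBayes(trend = TRUE), two-sided, with Benjamini-Hochberg adjustment over 16487 genes and a threshold of 0.05. Errors after ± are SEs of the fit unless called SD. The procedure was tested on simulated data in which both groups had the same spread per gene. The arrays here differ from that, with a median SD of 0.163 in knockouts and 0.0912 in wild types.

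The members, gene lists and tests were chosen with earlier results of these data known. Every member was named. From each linked list the genes past the threshold were named, or else the 2 with the smallest p. Myl3 and Des were named after their values were seen. The alternatives were other filters, probe-set averaging, 2 further normalizations, an offset of 16, other variance settings, array weights, the replicate number as a block, and each array left out. RefSeq tables of GRCm38.p6 gave gene order and promoter sequences; no coordinate was moved between builds.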

Additional observations from a re-analysis of the deposited data

How the results depend on the processing

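Over 16 alternatives, Sparc stayed called in all (-5.66 to -5.20). Hspa1l stayed negative in all (-0.78 to -0.61) and called in 13, but not without any 1 wild type array (-0.78 to -0.645 over the arrays left out). Leaving out 1 array gave 27 to 1017 genes called and 0 to 4 members called (0.164% to 6.17% of all genes). It gave 6 to 10 members at an unadjusted p of 0.05 (12.1% to 22.5% of all genes). Groups lay apart in 11 members without wild type array 2 (31.8% of all genes) and up to 18 without knockout array 2 (38.5%). The share of all genes ran from 31.1% to 41.4%, highest without knockout array 1, where 12 members lay apart. The 4 members called without knockout array 2 were Hspa1l, Hspa1a, Hspb7 and Hsp90aa1. Median centring gave 103 genes called and array weights 329, with 1 member each. The same omissions moved the family medians to -0.0908 to 0.11 (HSP70), -0.13 to -0.005 (J proteins) and -0.18 to -0.0939 (BAG), and array weights gave -0.10 for BAG. They moved the list medians to -0.18 to -0.13 (TRiC), -0.18 to -0.11 (HSP70 co-chaperones) and -0.0431 to 0.10 (heat shock factor regulators). For TRiC, median centring gave -0.19 and a second quantile normalization -0.10; these scalings moved the median of all genes by -0.041 and -0.015. With 1 array left out, the change moved by over 1.5 times in 22 of 32 members, and directions turned in 5 members with changes near 0 under some alternative. Hspa12a was at -0.0219 after centring, -0.0224 after quantile normalization, -0.002 with array weights and -0.0287 to 0.0909 with 1 array left out. Hspa13 was at 0.0043 after quantile normalization and -0.26 to 0.13 with 1 array left out. With 1 array left out, Hspb1 lay between -0.19 and 0.31, Bag1 between -0.12 and 0.0076, and Hsf2 between -0.0102 and 0.0873. The causes were not tested. With the replicate number as a block, 123 genes and 1 member were called. In that fit 8 members had an unadjusted p under 0.05 (16.9% of all genes). Same-numbered arrays had correlations of 0.01, 0.08 and -0.02 in their deviations, so the numbers were not taken to pair mice. Knockout array 2 alone correlated best with the wild type of its own number. Depth has no meaning for these intensities, and Dnajb6 is the member nearest to the dim filter.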
